A study of Mus musculus with 16 samples.

Results

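The levels of 10 genes of the unfolded protein response and the integrated stress response (Hspa5, Herpud1, Ern1, Xbp1, Atf6, Eif2ak3, Atf4, Ddit3, Trib3 and Chac1) were followed in mouse thymic epithelial cells, the stromal cells on which T cells are selected. They were chosen by name, with earlier results of these data known, and all 10 had an entry among the 23420 genes counted. RNA had been sequenced from cortical cells (cTEC) and from medullary cells, which were sorted by their MHC class II into a low (mTEClo) and a high fraction (mTEChi). Each population came from wild-type mice (WT, labelled psmb11 +/+) and from mice without Psmb11 (KO, labelled psmb11 -/-), the gene of the thymoproteasome subunit beta5t. There were 2 libraries per genotype of cTEC and 3 per genotype of mTEClo and of mTEChi, 16 in all. No group had a treatment, and all carry the strain label C57BL/6-derived BAC. How far WT and KO mice shared their background beyond that label was not tested. The labels disagree on the animals: the sample labels give an age of 6 to 8 weeks and the series description 11 thymi, whereas the protocol gives an age of 7 days and 14 mice. How many animals each library holds is not stated, so the spread that p-values rest on is that between libraries and may be technical.

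Unfolded proteins in the endoplasmic reticulum (ER) are sensed by 3 membrane proteins, IRE1alpha (Ern1), ATF6 (Atf6) and PERK (Eif2ak3). IRE1alpha splices the mRNA of Xbp1, ATF6 is cut to release a transcription factor, and PERK phosphorylates eIF2alpha, which slows translation while that of Atf4 is favoured. XBP1 and ATF6 induce chaperones such as BiP (Hspa5) and parts of the ER-associated degradation machinery such as Herpud1, and ATF4 induces Ddit3 (CHOP), Trib3 and Chac1. ATF4 is also induced without ER stress, by other eIF2alpha kinases. Splicing, cleavage and phosphorylation are not read by counts per gene, so the values below are amounts of mRNA only.

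The promoters of 4 members are printed because they hold the published response elements of the pathway. Of the 10 members, 9 had a promoter in the RefSeq set for GRCm38.p6, each running from 250 bases before the transcription start to 50 bases from it. Capitals mark the matches. In Hspa5 they mark the ER stress response element (ERSE, CCAAT and CCACG with 9 free bases between), at -65 to -47 from the start, and in Herpud1 ERSE-II (ATTGG and CCACG with 1 free base between) at -52 to -42, both elements through which ATF6 and XBP1 act. The C/EBP-ATF response element core (CARE, TGATGNAA), through which ATF4 acts, was matched on the reverse strand at -112 to -105 in Herpud1, 15 to 22 in Trib3 and -193 to -186 in Chac1. Coordinates and strands are chr2:34771840-34772139 (+) for Hspa5, chr8:94386179-94386478 (+) for Herpud1, chr2:152344011-152344310 (-) for Trib3 and chr2:119350992-119351291 (+) for Chac1.
Hspa5: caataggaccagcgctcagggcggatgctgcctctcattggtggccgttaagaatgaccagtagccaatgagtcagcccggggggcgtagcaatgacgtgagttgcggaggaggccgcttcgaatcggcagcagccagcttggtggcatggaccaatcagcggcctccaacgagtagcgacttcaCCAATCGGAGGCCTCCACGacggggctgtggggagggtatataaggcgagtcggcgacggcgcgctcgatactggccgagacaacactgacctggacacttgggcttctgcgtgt
Herpud1: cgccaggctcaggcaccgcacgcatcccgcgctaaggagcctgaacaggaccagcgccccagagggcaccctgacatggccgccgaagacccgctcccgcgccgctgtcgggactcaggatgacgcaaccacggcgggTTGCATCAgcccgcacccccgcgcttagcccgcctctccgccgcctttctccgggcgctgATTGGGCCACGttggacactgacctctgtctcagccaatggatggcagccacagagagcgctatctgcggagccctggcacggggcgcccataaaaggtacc
Trib3: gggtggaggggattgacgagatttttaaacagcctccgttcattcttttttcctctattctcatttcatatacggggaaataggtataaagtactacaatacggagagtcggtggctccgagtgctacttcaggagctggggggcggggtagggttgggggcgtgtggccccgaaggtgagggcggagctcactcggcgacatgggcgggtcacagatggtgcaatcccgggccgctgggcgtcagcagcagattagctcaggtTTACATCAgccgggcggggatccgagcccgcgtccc
Chac1: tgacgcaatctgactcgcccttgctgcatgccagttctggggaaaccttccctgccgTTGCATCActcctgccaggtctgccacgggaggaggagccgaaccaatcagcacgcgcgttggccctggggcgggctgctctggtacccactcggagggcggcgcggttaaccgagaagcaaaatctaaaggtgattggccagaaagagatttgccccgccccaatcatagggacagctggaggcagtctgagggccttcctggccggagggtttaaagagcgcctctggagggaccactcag

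On both strands, ERSE was found in 0.119%, ERSE-II in 0.0365% and the CARE core in 3.97% of the 32851 promoters of that length. The windows of Ern1, Xbp1, Eif2ak3, Atf4 and Ddit3 held none of these letters. A match describes the sequence and does not show that a factor was bound in these cells. Both elements of Herpud1 and the element of Hspa5 lie upstream of the start, whereas that of Trib3 lies within the first transcribed bases.

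Libraries held 64753610 to 146707262 reads assigned to genes. Psmb11 was at 139 to 170.2 CPM (counts scaled to library size by TMM) in cTEC WT and at 0 to 2.11 CPM in cTEC KO, and at 8.06 to 13.0 CPM in medullary WT libraries against 0.715 to 1.63 CPM in medullary KO libraries. All 9 cortical markers were higher in cTEC WT than in mTEClo WT, and Aire was at 1251 to 1642 CPM in mTEChi against 8.14 to 18.5 CPM in mTEClo. The medullary marker Ccl21a was listed at 0 in every library. The cTEC libraries varied more than the medullary ones, with a biological coefficient of variation of 0.652 against 0.131 in mTEClo and 0.113 in mTEChi, and cTEC KO 2 had 8541 genes with no read against 5757 to 6938 in the other cTEC libraries.

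Per transcript length, the 10 mRNAs covered a wide range. In RPKM (reads per gene length and library size, as deposited), Hspa5 averaged 535.5 over the 16 libraries and ranked 15 to 18 among all genes in mTEChi and 60 to 107 in the other libraries. Atf4 averaged 117 RPKM, Herpud1 79.6, Xbp1 51.5 and Ddit3 22.1 RPKM. The 3 sensors were low, with Atf6 at 8.63, Eif2ak3 at 7.86 and Ern1 at 4.97 RPKM, as were Trib3 at 4.16 and Chac1 at 1.30 RPKM. Trib3 and Chac1, the least abundant, differed most between groups. The mean of Chac1 was 6.14 CPM in mTEChi WT and 0.269 CPM in cTEC KO, and since the latter rests on 39 reads in cTEC KO 1 and 1 read in cTEC KO 2, no ratio is given. For the others, the highest group mean over the lowest, in CPM, was 8.63 for Trib3, against 2.59 for Hspa5, 2.48 for Herpud1 and 1.90 for Xbp1. It was 1.52 for Ern1 and for Atf6, 1.34 for Atf4 and for Ddit3, and 1.20 for Eif2ak3.

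**Figure D1:**
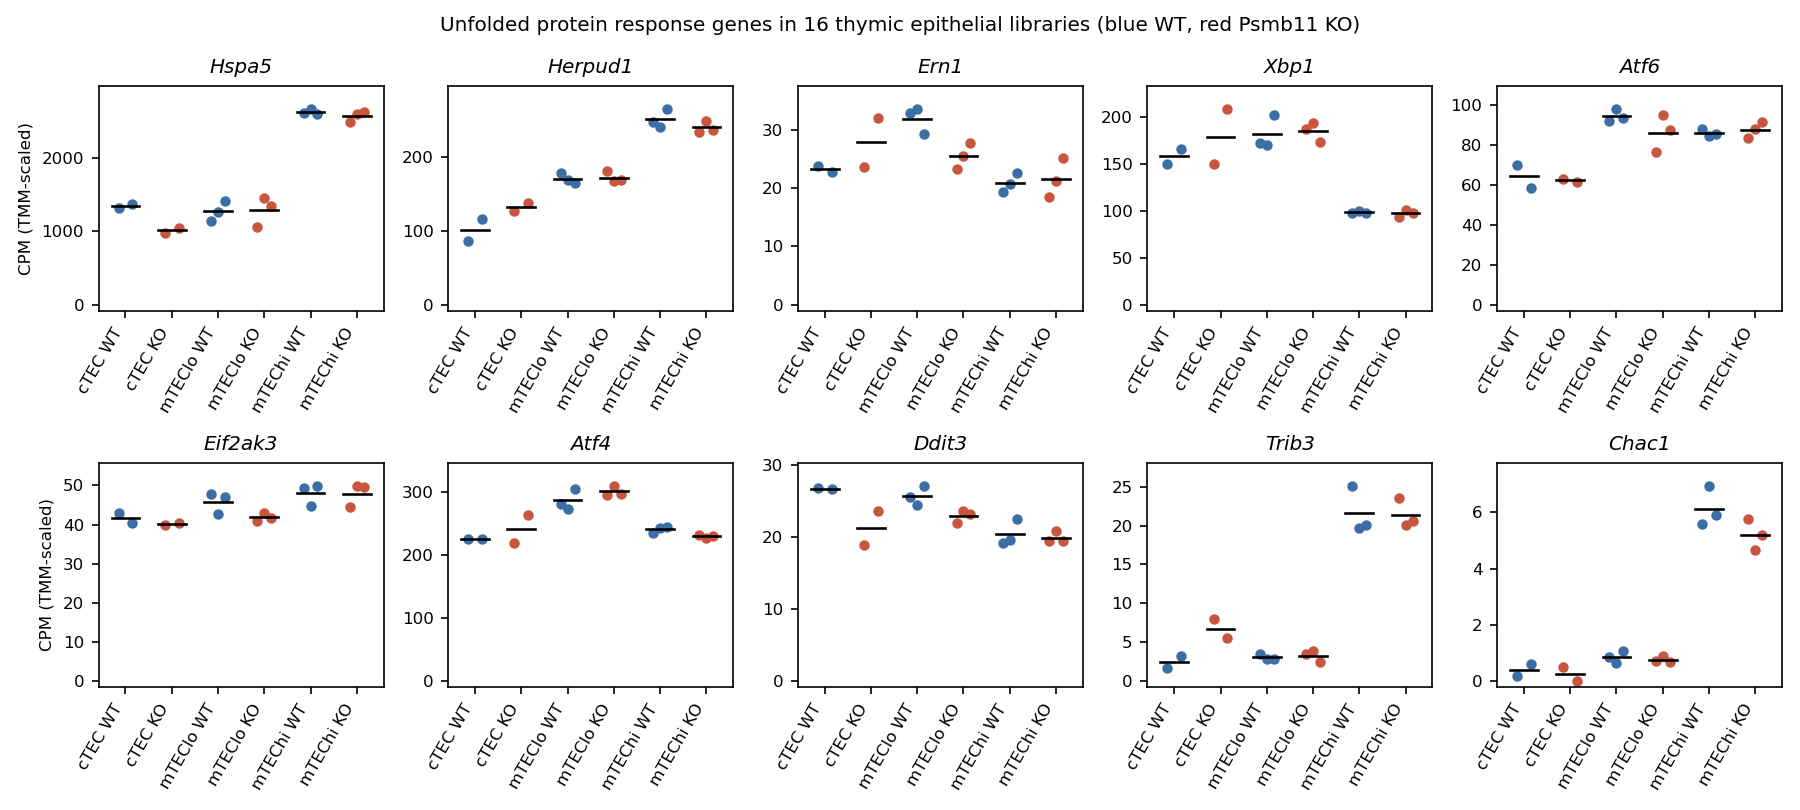
CPM (y axis, from 0, a scale per gene) of the 10 genes in each of the 16 libraries (points) by group (x axis), WT in blue and KO in red, with the group mean as a bar. Hspa5, Herpud1, Trib3 and Chac1 are highest in all 6 mTEChi libraries, and Xbp1 is lowest there.

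Most members differed between the medullary populations. In WT mice, mTEChi held more Hspa5, Herpud1, Trib3 and Chac1 mRNA than mTEClo and less Xbp1, Ern1, Ddit3, Atf4 and Atf6 mRNA. That is 4 members called higher and 5 lower at an adjusted p under 0.05 (edgeR quasi-likelihood test, Benjamini-Hochberg over the 19256 genes tested). Most genes differed between these populations, 43.0% being called higher and 37.9% lower, so the number of members called is near the background, and it is the direction and size for each gene that the values below give. In bulk RNA, fewer cells of a type and less RNA per cell cannot be told apart.

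Hspa5 (chromosome 2, 34772090 to 34776529, mm10), the main chaperone of the ER lumen, was at 1148, 1264 and 1407 CPM in mTEClo WT and at 2616, 2662 and 2606 CPM in mTEChi WT. Every mTEChi library was above every mTEClo library. The fold change was 2.07 (log2 1.05, SE 0.08, edgeR adjusted p = 1.27e-07). In KO mice Hspa5 was at 1054, 1459.9 and 1347 CPM in mTEClo and at 2487, 2602 and 2633 CPM in mTEChi, a 2.03-fold difference (log2 1.02, SE 0.12, edgeR adjusted p = 2.92e-05). The order of the group means was mTEChi WT and mTEChi KO, which overlapped, then cTEC WT, mTEClo KO and mTEClo WT, which overlapped, then cTEC KO.

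Herpud1 (chromosome 8, 94386500 to 94395358), a membrane protein of the ER degradation complex, was at 179, 169.6 and 165 CPM in mTEClo WT and at 248, 242 and 265 CPM in mTEChi WT. The libraries did not overlap, and the level was 1.47-fold higher in mTEChi (log2 0.56, SE 0.06, edgeR adjusted p = 3.25e-06). In KO mice it was at 181, 168 and 169 CPM in mTEClo against 235, 249.6 and 237 CPM in mTEChi (log2 0.50, SE 0.07, edgeR adjusted p = 8.85e-05). In CPM the populations were ordered mTEChi, mTEClo and cTEC in each genotype.

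Xbp1 was lower in mTEChi in both genotypes, and Ern1 in WT. Xbp1 (chromosome 11, 5520641 to 5525993), the transcription factor whose mRNA IRE1alpha splices, was at 172, 169.6 and 202 CPM in mTEClo WT and at 97.4, 99.3 and 98.0 CPM in mTEChi WT, 1.84-fold lower (log2 -0.88, SE 0.07, edgeR adjusted p = 2.80e-07). In KO mice it was at 188, 193 and 173 CPM in mTEClo and at 93.9, 101 and 97.1 CPM in mTEChi (log2 -0.90, SE 0.07, edgeR adjusted p = 1.51e-06). The mTEChi libraries were also below all cTEC libraries. Spliced and unspliced Xbp1 are counted together.

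Ern1 (chromosome 11, 106397620 to 106487796), the sensor itself, was at 32.8, 33.5 and 29.2 CPM in mTEClo WT and at 19.4, 20.7 and 22.6 CPM in mTEChi WT (log2 -0.60, SE 0.09, edgeR adjusted p = 4.16e-05). Its level in KO mice was 23.3, 25.4 and 27.8 CPM in mTEClo and 18.5, 21.2 and 25.1 CPM in mTEChi, and these overlapped. The KO difference was not called (log2 -0.22, SE 0.12, edgeR adjusted p = 0.127). With the replicate number as a block it was (adjusted p = 0.0363, same test), the range over 12 alternatives being 0.0302 to 0.394. The change of the medullary difference with genotype was not called either (log2 0.38, SE 0.15, edgeR adjusted p = 0.884).

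Atf6 (chromosome 1, 170704457 to 170867771), the sensor cut in the Golgi, was nearly level between the medullary populations, at 92.2, 97.9 and 93.8 CPM in mTEClo WT and 88.1, 84.6 and 85.8 CPM in mTEChi WT. The WT libraries did not overlap, and the lower level in mTEChi passed the threshold narrowly (log2 -0.13, SE 0.05, edgeR adjusted p = 0.0399). The call was lost in 9 of 12 alternatives, with adjusted p from 0.0361 to 0.228 over the 12, among them the fits without mTEClo WT 2 or without any 1 of the mTEChi WT libraries. In RPKM the sign turned, the log2 ratio being 0.02, since RPKM shifted the median of all genes by 0.16 (log2) in this comparison relative to TMM-scaled CPM. In KO mice Atf6 was at 76.4, 94.9 and 87.6 CPM in mTEClo and 83.4, 87.9 and 91.5 CPM in mTEChi, with no call (log2 0.04, SE 0.09, edgeR adjusted p = 0.690).

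Among the genes of the PERK branch, Trib3 and Chac1 were higher in mTEChi and Atf4 was lower. Eif2ak3 (chromosome 6, 70844527 to 70905240), the kinase PERK, was at 47.7, 42.8 and 47.1 CPM in mTEClo WT and at 49.3, 44.8 and 49.9 CPM in mTEChi WT, which overlapped (log2 0.07, SE 0.07, edgeR adjusted p = 0.376). In KO mice it was at 41.0, 43.0 and 41.6 CPM in mTEClo against 44.4, 49.9 and 49.5 CPM in mTEChi and was called higher (log2 0.21, SE 0.07, edgeR adjusted p = 0.0218). That call was lost without mTEClo KO 1 (adjusted p = 0.0937), mTEClo KO 3 (0.0553), mTEChi KO 2 (0.0820) or mTEChi KO 3 (0.0656), all by the same edgeR test. An antisense gene, Gm43292, overlaps exons of Eif2ak3, and the library kit does not mark strand, so reads of the 2 genes cannot be told apart.

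Atf4 (chromosome 15, 80255184 to 80257541), the transcription factor favoured when eIF2alpha is phosphorylated, was lower in mTEChi. It was at 281, 274 and 305 CPM in mTEClo WT and 235, 243 and 244 CPM in mTEChi WT (log2 -0.25, SE 0.06, edgeR adjusted p = 0.00199). In KO mice the values were 296, 309.6 and 297 CPM in mTEClo and 232, 227 and 231 CPM in mTEChi (log2 -0.37, SE 0.07, edgeR adjusted p = 5.37e-04). In neither genotype did the libraries overlap. Ddit3 (chromosome 10, 127290793 to 127296220), the factor CHOP, was at 25.5, 24.5 and 27.1 CPM in mTEClo WT and 19.1, 19.6 and 22.5 CPM in mTEChi WT (log2 -0.33, SE 0.09, edgeR adjusted p = 0.00407). In KO mice it was at 22.0, 23.6 and 23.2 CPM in mTEClo and 19.5, 20.8 and 19.5 CPM in mTEChi and was not called (log2 -0.18, SE 0.09, edgeR adjusted p = 0.0705). Exons of Ddit3 overlap the antisense genes Mars and Gm4189, so its counts are uncertain, and Mars alone was at 76.1 to 85.5 CPM in mTEClo WT and 86.9 to 91.5 CPM in mTEChi WT.

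Trib3 (chromosome 2, 152337425 to 152344060), a pseudokinase that inhibits AKT and CHOP, was at 3.46, 2.92 and 2.80 CPM in mTEClo WT and at 25.1, 19.7 and 20.1 CPM in mTEChi WT, a 7.08-fold difference (log2 2.82, SE 0.14, edgeR adjusted p = 3.12e-09). In KO mice it was at 3.55, 3.92 and 2.42 CPM in mTEClo and 23.6, 20.1 and 20.6 CPM in mTEChi (log2 2.72, SE 0.18, edgeR adjusted p = 3.59e-07). Chac1 (chromosome 2, 119351242 to 119354327), an enzyme that degrades glutathione, was at 0.877, 0.648 and 1.08 CPM in mTEClo WT, from 77, 61 and 99 reads. It was at 5.57, 6.94 and 5.90 CPM in mTEChi WT, from 529, 984 and 412 reads (log2 2.83, SE 0.23, edgeR adjusted p = 2.82e-07). In KO mice Chac1 was at 0.719, 0.881 and 0.685 CPM in mTEClo and 5.76, 4.67 and 5.20 CPM in mTEChi (log2 2.79, SE 0.22, edgeR adjusted p = 1.22e-06). Neither gene had a mTEChi library near the mTEClo range. Atf4 and Ddit3, which lie upstream of them, were lower in mTEChi WT in CPM, but how much lower depends on the scaling. In RPKM, which shifted the median of all genes by 0.16 (log2), the WT ratios were log2 -0.09 for Atf4 and -0.15 for Ddit3. The KO ratios were log2 -0.23 for Atf4 and -0.03 for Ddit3. Those of Trib3 and Chac1 were log2 2.97 and 2.97 in WT.

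In KO mice 5 members were called higher in mTEChi and 2 lower, beside 42.2% and 36.2% of the 19344 genes tested. The difference between the genotypes in the mTEChi to mTEClo contrast was called for 0 of the 10 members (edgeR), 1 of them, Ern1, having an unadjusted p under 0.05, and for 0 by DESeq2 or voom. Over all 19816 genes tested it was called for 0.0101%.

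**Figure D2:**
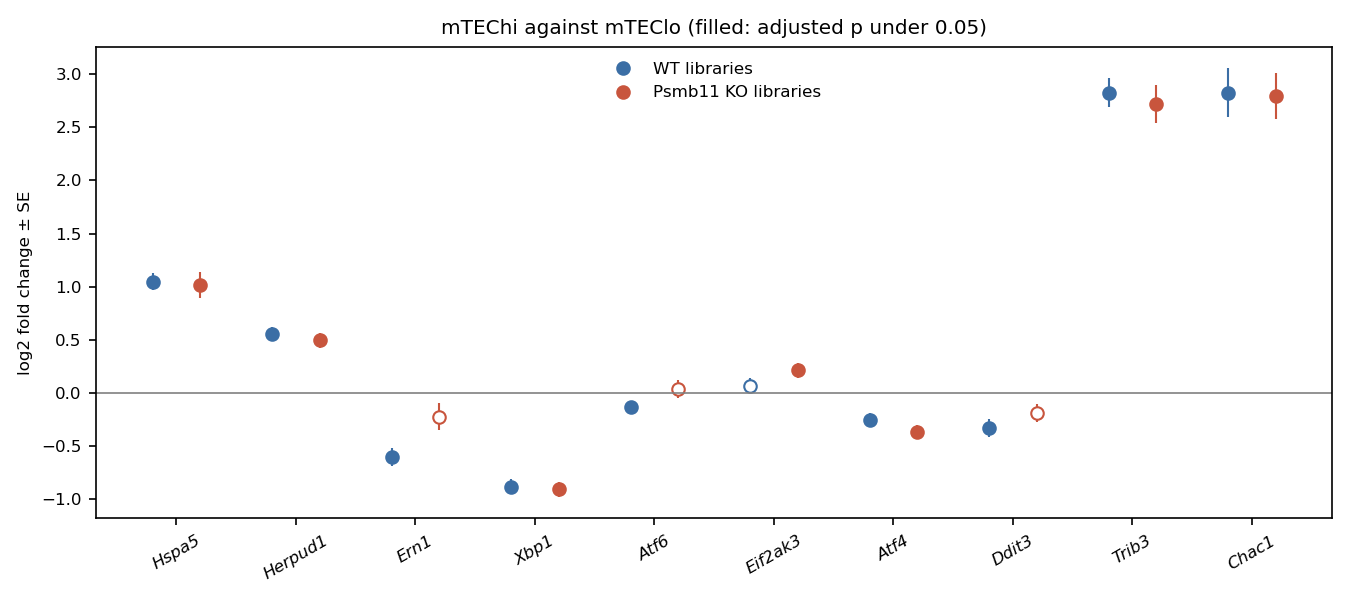
Log2 fold change of mTEChi against mTEClo (y axis, point and SE) for each gene (x axis) in WT (blue) and KO (red) libraries, filled where the adjusted p is under 0.05. The 4 genes well above 0 and Xbp1 below it take nearly the same values in the 2 genotypes.

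The lists of 75 further pathway genes counted were also chosen with earlier results of these data known. Among these genes, the chaperones went mostly with Hspa5. Of 16 ER chaperones and foldases, 11 were called higher in mTEChi WT and 2 lower, where 43.0% and 37.9% of all genes were. Their median log2 fold change was 0.49 beside 0.06 over all genes. Sdf2l1 and Creld2, ER-resident proteins induced with BiP, were higher by log2 1.59 (SE 0.07) and 1.52 (SE 0.06), and Manf, a secreted ER protein, by log2 1.03 (SE 0.07). Summed over the 16 genes, the level was 8875 to 9189 CPM in mTEChi WT, 5552 to 6392 CPM in mTEClo WT and 5506 to 5946 CPM in cTEC WT. In KO libraries 10 were called higher and 2 lower, where 42.2% and 36.2% of all genes were. The median was 0.37 beside 0.08 over all genes.

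Genes of ER-associated degradation did not move as a group. In WT, 4 of 14 were called higher and 7 lower (median log2 -0.14), where 43.0% and 37.9% of all genes were. Derl3, an ER channel component, was higher by log2 2.41 (SE 0.17) and Sel1l, the scaffold of the HRD1 ligase, by log2 0.74 (SE 0.05). In KO, 3 were higher and 4 lower (median log2 -0.14), where 42.2% and 36.2% of all genes were.

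Among 8 other sensors, transducers and processing enzymes, 3 were higher and 4 lower in mTEChi WT (median log2 -0.15). The same counts held in KO (median log2 -0.22). Of all genes, 43.0% were called higher and 37.9% lower in WT, and 42.2% and 36.2% in KO. Mbtps1, the protease that cuts ATF6, was at 234 to 251 CPM in mTEClo WT and 114 to 123 CPM in mTEChi WT (log2 -1.05, SE 0.06). Creb3l3, a liver and gut relative of ATF6, was at 0.125 to 0.361 CPM in mTEClo WT and 6.12 to 7.56 CPM in mTEChi WT (log2 4.86, SE 0.30). Creb3l2 was lower (log2 -0.91, SE 0.06).

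Of 8 eIF2alpha kinases, eIF2 factors and phosphatase subunits, 2 were higher and 3 lower in WT (median log2 0.02). The kinases Eif2ak2 (PKR) and Eif2ak4 (GCN2) were lower by log2 -1.81 (SE 0.07) and -1.28 (SE 0.07), and Eif2b5, a subunit of the exchange factor that phosphorylated eIF2alpha inhibits, was higher by log2 1.33 (SE 0.05). In KO, 2 were higher and 2 lower (median log2 -0.01). The shares of all genes called higher and lower were 43.0% and 37.9% in WT and 42.2% and 36.2% in KO.

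Of 29 targets of ATF4 and CHOP, 18 were higher and 7 lower in mTEChi WT (median log2 0.54), and 17 and 7 in KO (median log2 0.55), where 43.0% and 37.9% of all genes were called in WT and 42.2% and 36.2% in KO. Their summed level ran the other way, at 2673 to 2939 CPM in mTEChi WT against 3878 to 4146 CPM in mTEClo WT, and at 2699 to 2883 CPM against 3721 to 4369 CPM in KO. Atf3 alone held 1817 to 2193 CPM of the sum in mTEClo WT. Fgf21, a secreted hormone of the stress response, was at 26.4 to 30.8 CPM in mTEClo WT and 295 to 336 CPM in mTEChi WT (log2 3.42, SE 0.08). Gdf15, another stress hormone, and Slc7a3, a cationic amino acid carrier, were higher by log2 3.77 (SE 0.11) and 4.10 (SE 0.15). Among those lower were 2 targets picked after their values were seen: Atf3, a factor also induced on tissue dissociation, by log2 -2.67 (SE 0.13), and Psat1, a serine synthesis enzyme, by log2 -1.30 (SE 0.06). Apart from those 2, the 14 genes named from the 5 lists had edgeR adjusted p from 1.22e-11 to 9.37e-08 in WT, and each kept its call in all 12 alternatives.

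**Figure D3:**
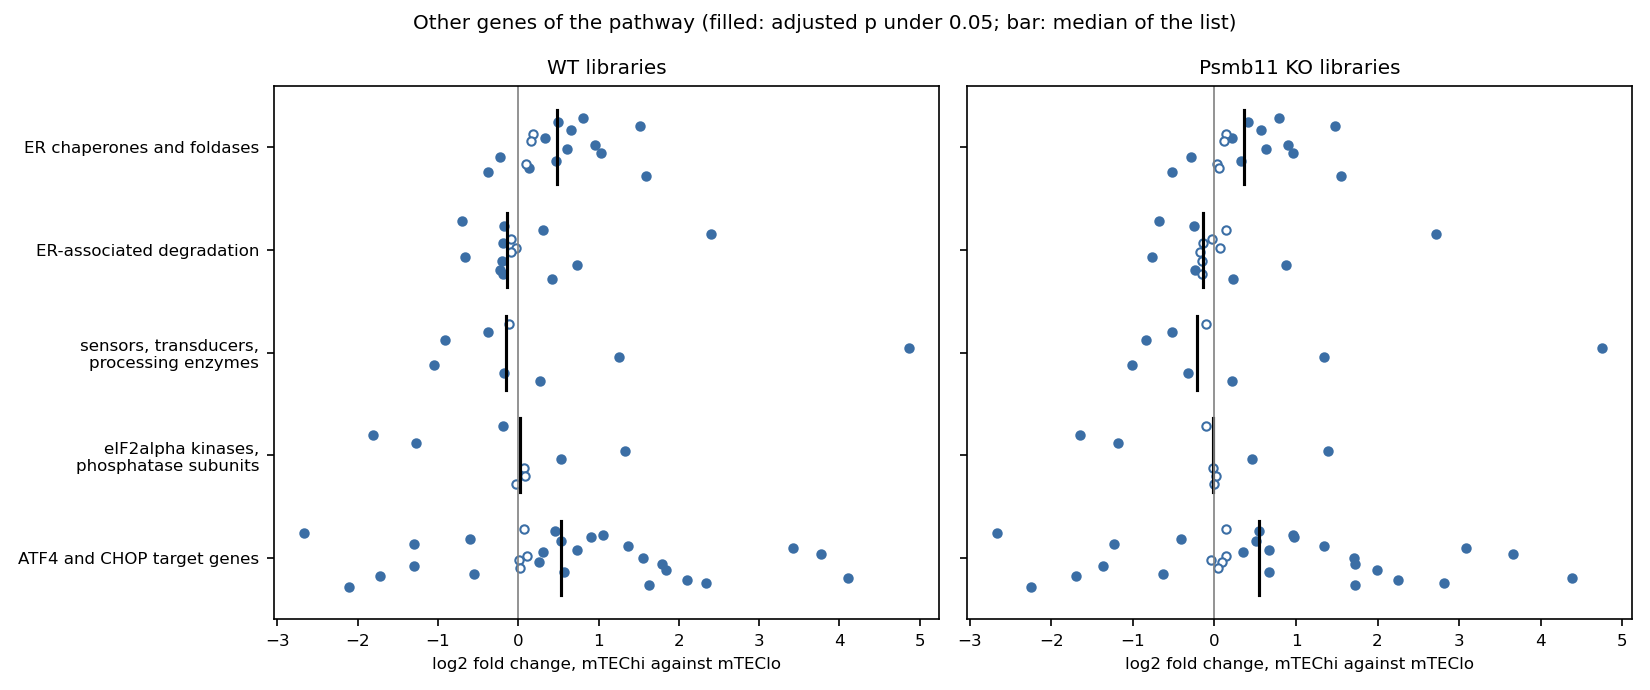
Log2 fold change of mTEChi against mTEClo (x axis) for the genes of 5 pathway lists (rows), in WT (left) and KO (right) libraries, filled where the adjusted p is under 0.05, with the list's median as a bar. The chaperone and ATF4 target medians lie at 0.49 and 0.54 in WT, and the other 3 near 0.

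Markers of other cells moved in the same comparison, where 43.0% of all genes were called higher and 37.9% lower. Of 13 thymocyte markers, 7 were called higher and 1 lower. Their summed level was 145 to 230 CPM in mTEChi WT against 70.0 to 111 CPM in mTEClo WT. All 6 B cell markers were called higher in mTEChi WT, with a summed level of 231 to 242 CPM against 66.2 to 76.2 CPM in mTEClo WT, and all 10 dendritic cell and macrophage markers tested, at 512 to 534 CPM against 49.7 to 51.4 CPM. Of 7 plasma cell markers, 3 were higher, Derl3 among them, and 1 lower, and the sum was 332 to 374 CPM against 325 to 348 CPM, Mzb1 being at 0.295 to 0.487 CPM in mTEChi WT. The 10 immediate early and dissociation genes were all lower, at 5874 to 8280.0 CPM against 27260.3 to 28444 CPM, and so were the 8 tuft cell markers, at 411 to 559 CPM against 2415 to 2594 CPM. The sort took CD45- EpCAM+ cells, a gate that would remove B cells, plasma cells, dendritic cells and macrophages that carry CD45. The part of these cells or of handling in the stress gene levels was not tested.

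In WT mice, cTEC held less Herpud1, Atf6, Ern1 and Atf4 mRNA than mTEClo. These 4 were called lower and none higher, beside 24.1% lower and 20.9% higher of the 17213 genes tested by edgeR. Herpud1 was at 86.5 and 116 CPM in cTEC WT (log2 -0.68, SE 0.13, edgeR adjusted p = 0.00301) and Atf6 at 70.0 and 58.6 CPM (log2 -0.49, SE 0.09, edgeR adjusted p = 0.00244). Ern1 was at 23.8 and 22.7 CPM (log2 -0.38, SE 0.09, edgeR adjusted p = 0.0104) and Atf4 at 225 and 225 CPM (log2 -0.28, SE 0.08, edgeR adjusted p = 0.0261). Over 11 alternatives, Ern1 kept its call in 7 and Atf4 in 6. The calls of both were lost, among other losses, without mTEClo WT 1 (adjusted p = 0.05002 and 0.0569 by edgeR) or mTEClo WT 2 (0.0706 and 0.0575). With voom the calls of both were lost too (adjusted p = 0.354 and 0.202). That of Atf4 was also lost without mTEClo WT 3 (0.0698), and without cTEC WT 2 the count was 6, since Trib3 and Chac1 were then called lower, beside 8987 of 17721 genes. Markers of other cells differed here too: all 8 tuft cell markers were called lower in cTEC WT (summed level 391 to 458 CPM against 2415 to 2594 CPM), and 5 of 8 fibroblast and pericyte markers higher and 1 lower (983 to 1253 CPM against 531 to 591 CPM). Of 13 thymocyte markers, 6 were higher and none lower (122 to 171 CPM against 70.0 to 111 CPM). Their part in the member levels was not tested.

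The remaining 6 members missed the threshold between these groups. Hspa5 was at 1313 and 1368 CPM in cTEC WT, within the mTEClo range, and Trib3 at 1.71 and 3.30 CPM (log2 -0.21, SE 0.34, edgeR adjusted p = 0.650). Chac1 was at 0.179 and 0.610 CPM from 16 and 56 reads (log2 -1.06, SE 0.70, edgeR adjusted p = 0.255). Of 16 chaperones, 2 were called higher and 2 lower, and of 14 degradation genes 5 higher and 1 lower. Of 8 other sensors, transducers and processing enzymes, 2 were higher and 2 lower, and of the 8 genes of the eIF2 list 0 and 1. Of 29 ATF4 and CHOP targets, 7 were higher and 13 lower (median log2 -0.15, beside -0.02 over all genes). The shares of all genes called were 20.9% higher and 24.1% lower. Dnajc3, an inhibitor of PERK, was higher (log2 0.58, SE 0.10), Psat1 was at 314 to 329 CPM against 78.9 to 86.1 CPM (log2 2.02, SE 0.08), and Fgf21 was lower (log2 -2.88, SE 0.13).

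Against mTEChi WT, cTEC WT had 2 members called higher and 5 lower, beside 30.8% and 43.5% of 19634 genes. This comparison shares its cTEC libraries with the one above and its mTEChi libraries with the medullary one. Xbp1, at 150.2 and 166 CPM in cTEC WT, was higher (log2 0.69, SE 0.07, edgeR adjusted p = 1.39e-04), and so was Ddit3, at 26.8 and 26.7 CPM (log2 0.39, SE 0.11, edgeR adjusted p = 0.0147). The Ddit3 call was lost without mTEChi WT 1 (0.0541) or mTEChi WT 2 (0.0587). The lower members were Chac1 (log2 -3.95, SE 0.54), Trib3 (-3.11, SE 0.31), Herpud1 (-1.31, SE 0.13), Hspa5 (-0.97, SE 0.07) and Atf6 (-0.42, SE 0.09), with edgeR adjusted p from 2.91e-05 to 0.00541. With voom the adjusted p of Atf6 was 0.0582. The median of all genes was -0.24 on this scale.

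In KO mice the same comparisons gave fewer calls. Between cTEC KO and mTEClo KO, 0 members were called by edgeR, where 3 had an unadjusted p under 0.05, and 3.32% of 17393 genes were called higher and 2.87% lower. DESeq2 called 1, Trib3, and voom none. The count was 3 without cTEC KO 1 (Ern1, Trib3 and Chac1), where 9835 of 17714 genes were called, and 3 without cTEC KO 2 (Herpud1, Atf4 and Trib3), where 4234 of 18137 were. Trib3 was at 7.94 and 5.55 CPM in cTEC KO, above the mTEClo KO range of 2.42 to 3.92 CPM (log2 1.11, SE 0.41, edgeR adjusted p = 0.164).

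Between cTEC KO and mTEChi KO, 1 member was called higher, Xbp1 (log2 0.87, SE 0.15, edgeR adjusted p = 0.00808), and 4 lower, beside 20.7% and 26.0% of 19444 genes. The Xbp1 call was lost without mTEChi KO 1 (0.0717), mTEChi KO 2 (0.0591) or mTEChi KO 3 (0.0648). The lower members were Hspa5 (log2 -1.35, SE 0.11), Herpud1 (-0.87, SE 0.08), Atf6 (-0.50, SE 0.07) and Trib3 (-1.67, SE 0.24), with edgeR adjusted p from 0.00144 to 0.00580. Chac1 had 39 reads in cTEC KO 1 and 1 read in cTEC KO 2, against 362 to 820 reads in mTEChi KO (log2 -4.27, SE 1.47, edgeR adjusted p = 0.0680). Without cTEC KO 1 the count was 8, since Ern1, Eif2ak3 and Chac1 were then called, beside 16074 of 19955 genes.

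Between KO and WT mice, no member passed the threshold in any of the 3 populations. This comparison asks whether these mRNAs differ where the thymoproteasome subunit is missing. In cTEC, where Psmb11 is most abundant, edgeR called 0 members and 0% of the 16423 genes tested, although 1 member and 2104 genes had an unadjusted p under 0.05. DESeq2 called 1 member, Hspa5, and 821 genes in all, and voom 0 members. The fit over all 16 libraries, in which the medullary libraries also set the spread, called Herpud1 and Trib3 beside 4700 of 20126 genes, so that 2 of 10 members is near its background.

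In cTEC, Hspa5 was at 1313 and 1368 CPM in WT and 981 and 1050.4 CPM in KO, without overlap (log2 -0.38, SE 0.13, edgeR adjusted p = 0.308; range over 10 alternatives 0.0196 to 1.00). Ddit3 too was lower in both KO libraries, at 18.9 and 23.6 CPM against 26.8 and 26.7 CPM (log2 -0.31, SE 0.25, edgeR adjusted p = 0.688). Trib3 was at 1.71 and 3.30 CPM in WT and 7.94 and 5.55 CPM in KO (log2 1.43, SE 0.70, edgeR adjusted p = 0.465; range 0.00617 to 1.00). Herpud1 was at 86.5 and 116 CPM in WT and 127 and 138 CPM in KO (log2 0.40, SE 0.20, edgeR adjusted p = 0.463). Of all genes tested, 21.0% had both KO libraries above both WT libraries and 24.2% had both below, which is near the 2 members of 10 seen each way.

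The other 6 members overlapped between cTEC KO and WT. Xbp1 was at 150.3 and 208 CPM in KO against 150.2 and 166 CPM in WT, Ern1 at 23.7 and 32.0 CPM against 23.8 and 22.7 CPM, and Atf4 at 219.6 and 263 CPM against 225 and 225 CPM. Atf6 was at 63.3 and 61.3 CPM in KO and Eif2ak3 at 39.9 and 40.3 CPM. Chac1 had 39 and 1 reads in KO and 16 and 56 in WT. In Xbp1, Ern1 and Atf4, cTEC KO 2 was the higher of the KO libraries, and cTEC KO 1 lay near the WT values.

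The cTEC KO and WT libraries also differed in markers. Aire was at 44.2 and 107 CPM in KO against 10.6 and 13.7 CPM in WT, the summed B cell markers at 48.3 to 49.7 CPM against 10.4 to 16.3 CPM, the tuft markers at 817 to 1229 CPM against 391 to 458 CPM, and the dissociation genes at 16359 to 18601 CPM against 25171 to 26138 CPM. Summed cortical markers, Psmb11 among them, were at 4381 to 5463 CPM in KO and 6569 to 7894 CPM in WT. Hspa5, Herpud1, Trib3 and Chac1 were all higher in mTEChi WT than in cTEC WT, and of these Herpud1 and Trib3 were higher in both cTEC KO libraries, Hspa5 was lower in both, and Chac1 overlapped. The part of medullary cells in the cTEC KO values was not tested.

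In mTEClo, edgeR called 0 members and 0.00586% of 17073 genes, 1 member having an unadjusted p under 0.05; DESeq2 called 1 and voom 0. That member is Ern1, at 32.8, 33.5 and 29.2 CPM in WT and 23.3, 25.4 and 27.8 CPM in KO, without overlap (log2 -0.33, SE 0.09, edgeR adjusted p = 0.221). Its adjusted p ran from 0.0381 with DESeq2 to 0.756 over 12 alternatives. Ddit3 did not overlap either, at 22.0 to 23.6 CPM in KO against 24.5 to 27.1 CPM in WT (log2 -0.18, SE 0.09, edgeR adjusted p = 0.431), where 7.88% of all genes had every KO library below every WT library. The remaining log2 differences lay between -0.20 for Chac1 and 0.10 for Trib3.

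In mTEChi, edgeR called 0 members and 0.00510% of 19614 genes; 0 members had an unadjusted p under 0.05, and DESeq2 and voom called 0. The largest difference was that of Chac1 (log2 -0.24, SE 0.14, edgeR adjusted p = 0.999), and the other 9 lay between -0.07 and 0.04, with SE from 0.06 to 0.11. Atf4 was at 227 to 232 CPM in KO and 235 to 244 CPM in WT, without overlap, as for 4.41% of all genes that were lower and 4.53% that were higher in every KO library. Hspa5 differed by log2 -0.04 (SE 0.06).

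Whether the effect of the knockout differed between populations was tested directly. Called members numbered 0 for cTEC against mTEClo (edgeR, 4.68% of 17820 genes called, 2 members at unadjusted p under 0.05) and 0 for cTEC against mTEChi (5.35% of 19990 genes, 3 members). Trib3 had the smallest p of the members against mTEChi (log2 1.43, SE 0.40, edgeR adjusted p = 0.0857; range over 16 alternatives 0.00695 to 0.525). Against mTEClo it was at log2 1.32 (SE 0.57, edgeR adjusted p = 0.207). DESeq2 called Hspa5 and Trib3 in the comparison with mTEChi and none in that with mTEClo, and voom called none in either. The count with mTEChi was 6 without cTEC KO 1, where 6997 of 20437 genes were called. It was 3 without cTEC KO 2 beside 4366 of 20476 genes, and 2 without cTEC WT 2 beside 1153 of 20438. That with mTEClo was 2 without cTEC KO 1, where 6520 of 18221 genes were called.

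**Figure D4:**
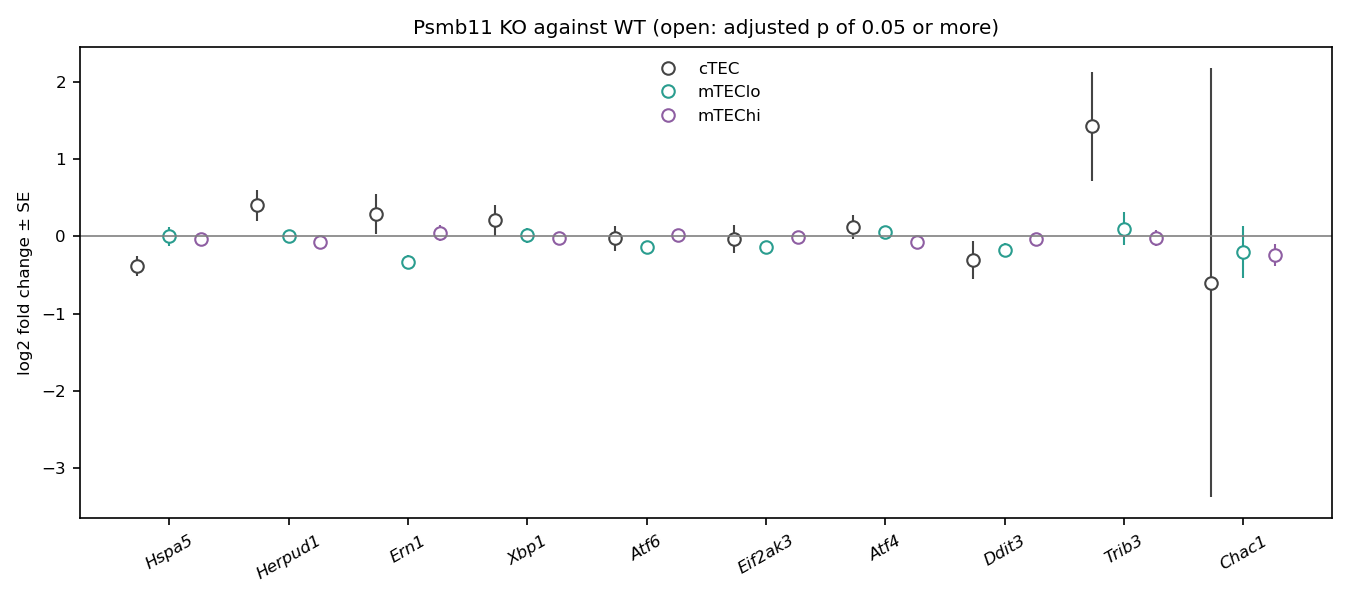
Log2 fold change of KO against WT (y axis, point and SE) for each gene (x axis) in cTEC, mTEClo and mTEChi, open because no adjusted p is under 0.05. The medullary points lie between -0.33 and 0.10, and the widest errors are those of Chac1 and Trib3 in cTEC.

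By the same test, the further pathway genes were not called between genotypes either. Of the 75, edgeR called 0 in cTEC, 0 in mTEClo and 0 in mTEChi, with 9, 8 and 0 at an unadjusted p under 0.05. DESeq2 called 4, 0 and 0, and voom 0 in each. In cTEC the count was 13 with all 16 libraries fitted together, where 4700 of 20126 genes were called. It was 3 with no filter on low counts, beside 383 of 18625 genes. With the replicate number as a block it was 3 too, beside 718 of 16423 genes. Summed ER chaperones were at 4975 to 5689.7 CPM in cTEC KO and 5506 to 5946 CPM in cTEC WT, and at 8724 to 9007 CPM in mTEChi KO and 8875 to 9189 CPM in mTEChi WT. In cTEC, the summed ATF4 and CHOP targets were at 2433 to 2788 CPM in KO and 3247 to 3561 CPM in WT, and the summed eIF2alpha kinases, eIF2 factors and phosphatase subunits at 731 to 811 CPM in KO and 841 to 899 CPM in WT, both without overlap. Atf3 alone, whose cTEC levels are given in a later section, was lower in KO by about as much as the whole sum of the targets. The median log2 fold change of the targets was 0.08, beside 0.01 over all genes, and that of the eIF2 list was -0.21. The sums of the degradation genes, and of the sensors, overlapped in cTEC.

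Across the 6 group means, the 5 genes whose profile was nearest that of Hspa5 were Eif5a2, 3110052M02Rik, Scarb1, Wdr76 and Phf17. Likeness was the root mean square difference of centred log2 CPM, over the 12829 genes with a mean of at least 5 CPM, and was 0.018 to 0.070 for these 5. The ER proteins Manf (0.076) and Hsp90b1 (0.084) ranked 6 and 9. Nearest to Ddit3 were Cpeb2 (0.010), Ddx42, Asun, Tjp1 and Vps54 (0.036). These lists describe profiles over 6 points only.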

How the data were processed

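RNA of sorted thymic epithelial cells (CD45- EpCAM+, Ly51+ UEA1- for cTEC and Ly51- UEA1+ for mTEC) was sequenced on a HiSeq2000 from TruSeq RNA v2 libraries, which do not mark strand, per the labels' protocols. The authors deposited, per gene and library, a raw read count and an RPKM value. CASAVA 1.8.2 and HTSeq 0.5.4p1 and the build mm10 are named in the submitters' processing notes, and the aligner and annotation are not given in the sources used here. Rows that name no gene (5 in all) were left out, with 13.7% to 30.4% of a library's reads outside genes and 0.54% to 0.89% ambiguous.

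Counts were tested with edgeR 4.0.16 in R 4.3.3 (TMM, filterByExpr, quasi-likelihood test), each comparison fitted on its own libraries, p-values adjusted by Benjamini-Hochberg over every gene tested, and calls made under 0.05. CPM values use TMM-scaled library sizes. RPKM was used to compare levels between genes and to see how member ratios depend on the scaling. Alternatives were DESeq2 size factors, no filter on low counts, the DESeq2 1.42.0 Wald test, voom (limma 3.58.1) with a variance per population, 1 edgeR fit of all 16 libraries, the replicate number as a block, and leaving out each library. The scripts were tested on simulated data. No 2 libraries of a group agreed within sampling noise.

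Replicate numbers are not said to mark shared animals. Same-numbered mTEChi and mTEClo KO libraries deviated together (r = 0.24, 0.11 and 0.19), so the blocked value stands beside that result, and in no other comparison did every pair pass 0.1. The 10 members and the pathway and marker lists were chosen with earlier results of these data known. Named genes are the members, up to 3 called genes of smallest p per list and comparison, and the 5 genes of nearest profile to Hspa5 and Ddit3; 1 gene that this rule names is not reported here. Rtcb, Jchain and Adgre1 of the lists had no entry under those names. Promoters came from RefSeq (GRCm38.p6) and exon overlaps from GENCODE vM21.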

Additional observations from a re-analysis of the deposited data

Results flagged for a closer look

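No member was flagged. Among the further pathway genes, the KO effect differed between populations for 4, by the edgeR test of the difference itself. They are 4 of 75 against mTEClo and 3 of 75 against mTEChi, near the 4.68% and 5.35% of all genes called in these contrasts. None of the 4 was called between KO and WT within cTEC, and the voom test called none of the 75 in either contrast.

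Fgf21 was at 3.40 to 4.12 CPM in cTEC WT and 14.6 and 14.6 CPM in cTEC KO. Its KO effect exceeded that in mTEClo by log2 1.71 (SE 0.20, edgeR adjusted p = 0.00244) and that in mTEChi by log2 2.05 (SE 0.12, edgeR adjusted p = 1.38e-04), each called in 15 of 16 alternatives. Slc7a5, an amino acid transporter, was at 5.33 to 6.66 CPM in cTEC WT and 17.4 to 18.5 CPM in cTEC KO. Its KO effect differed by log2 1.71 (SE 0.23, edgeR adjusted p = 0.00483) from mTEClo and by log2 1.56 (SE 0.14, edgeR adjusted p = 0.00105) from mTEChi, each called in 15 of 16 alternatives. Both genes are higher in mTEChi than in cTEC WT, and Aire was higher in the cTEC KO libraries; the part of medullary cells was not tested.

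Creb3l1, an ATF6-related factor, was at 8.53 to 9.12 CPM in cTEC WT and 17.0 to 19.8 CPM in cTEC KO. The difference of its KO effect was log2 1.06 (SE 0.23, edgeR adjusted p = 0.0323) against mTEClo, called in 6 of 16 alternatives, and log2 1.20 (SE 0.24, edgeR adjusted p = 0.0253) against mTEChi, called in 8 of 16. Atf3 was at 1422 to 1626 CPM in cTEC WT and 543 to 779 CPM in cTEC KO, with a difference of log2 -1.19 (SE 0.22, edgeR adjusted p = 0.0175) against mTEClo, called in 11 of 16 alternatives. Dissociation genes were lower in the cTEC KO libraries too, and their part was not tested.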

How the results depend on the processing

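Of 368 values of called members under alternatives, 338 kept their call, 30 lost it and 0 reversed; of 1152 values of members not called, 51 gained a call and 75 changed sign. Named pathway genes kept 927 of 978 calls. In RPKM, 66 of 90 member ratios lay within the spread between replicates, 23 moved beyond it and 1 reversed, Atf6 in mTEChi against mTEClo WT (log2 0.024 in RPKM, -0.14 in CPM). The number of members called was 0 in cTEC KO against WT and 1 with the DESeq2 Wald test and 2 with all 16 libraries fitted together; in mTEClo KO against WT it was 1 with the DESeq2 Wald test. For cTEC against mTEClo it was 2 with voom and 2 to 6 with a library left out in WT, and in KO 1 with the DESeq2 Wald test, 2 with all 16 libraries and 0 to 3 with a library left out. For cTEC against mTEChi in KO it was 3 with the replicate block, where Atf6 (edgeR adjusted p = 0.115) and Trib3 (0.0771) lost their calls, and 4 to 8 with a library left out. For the difference of the KO effect it was 1 with all 16 libraries and 0 to 2 with a library left out (cTEC and mTEClo), and 2 with the DESeq2 Wald test, 1 with all 16 libraries and 0 to 6 with a library left out (cTEC and mTEChi). The cause of these changes was not tested. With 2 libraries per genotype, cTEC limits every comparison that uses it, and where leaving out a library left 1 cTEC library, that library was taken to vary like the other groups. In mTEChi against mTEClo KO, where same-numbered libraries deviated together, the block changed the call of Ern1 only (log2 -0.23, SE 0.08, edgeR adjusted p = 0.0363). Counts of Chac1 in cTEC, from 1 to 56 reads, set the precision there.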
